A study of Rattus norvegicus with 18 samples.

Results

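A-type potassium channels of the Kv4 family were followed through 8 genes: the pore-forming subunits Kcnd2 and Kcnd3, the calcium-binding subunits Kcnip1, Kcnip2, Kcnip3 and Kcnip4, and the membrane partners Dpp6 and Dpp10. They are 8 of the 16238 genes named on the array, taken by gene name in the scanner files, and are read by 11 of its 41012 distinct probes. Of these probes, 1 carries the older name Kchip2 for Kcnip2. The set was chosen by the lower Kcnd2 signal of the high-preferring strain, so the Kcnd2 strain ratios are given below as a description, with no test. Two-colour Agilent arrays had compared brain RNA of 2 rat strains that differ in ethanol preference, WHP with high and WLP with low preference. All rats were males that had received no alcohol, and the labels give no age. Each of 3 areas (nucleus accumbens, prefrontal medial cortex, hippocampus) was represented by 3 pairs of pools. A pool held equal RNA of 3 rats, 1 WHP pool was set against 1 WLP pool, and each pair was measured on 2 arrays with the dyes swapped. This gave 18 pools on 18 arrays, with n = 3 pool pairs per area. The study's design text describes the pairs as biological replicates. Whether a rat gave tissue to more than 1 area is not given in the labels.

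Kv4 channels carry a fast, transient potassium current that activates below spike threshold and limits how far action potentials spread back into dendrites. Kcnd2 encodes Kv4.2, the main dendritic A-type channel of hippocampal pyramidal cells, and Kcnd3 encodes the related Kv4.3. The Kcnip genes encode KChIP proteins, EF-hand calcium sensors that bind the channel's cytoplasmic N-terminus and raise its surface expression. Dpp6 and Dpp10 encode relatives of dipeptidyl peptidase 4 that lack peptidase activity, span the membrane once and speed up the channel's gating.

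Kcnd2 was read by a single probe, A_44_P353672, at chr4:48046384-48046443 on the plus strand of the rn4 build, so no second probe could be set against it. Probes are 60 bases long, and the files give their rn4 position but no exon or UTR. The last 30 bases of the Kcnd2 probe are shown because every Kcnd2 value below rests on this probe.
Kcnd2: gaaagaagaaataacaacccctttttgcat
It was well above background in all 18 WHP and all 18 WLP channels.

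The name Kcnd3 went against the position of its probes. Both probes named Kcnd3 lie on rn4 chromosome 3, at chr3:128922797-128922856 and chr3:128924211-128924270 on the plus strand, whereas the RefSeq table (GRCr8) puts the Kcnd3 gene on chromosome 2. On the opposite strand of the same stretch lie both probes of Flrt3, a gene for a cell adhesion protein that RefSeq places on chromosome 3. The last 26 bases of the first Kcnd3-named probe are the exact reverse complement of the last 26 bases of the Flrt3 probe at chr3:128922831-128922890, as the capitals show in the final 30 bases of each.
Kcnd3-named: ttcaCTTTCACAGTCAACAAGTCATCTTAC
Flrt3: ctgaGTAAGATGACTTGTTGACTGTGAAAG
The second probe named Kcnd3 was well above background in 0 of 18 channels of either strain, so values are given for the first only, under the name of its label. For all other members with an rn4 position the chromosome was that of the gene in RefSeq.

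**Figure D1:**
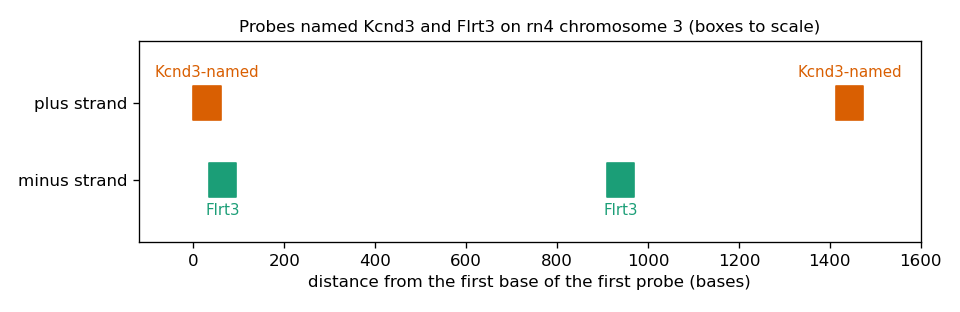
Map of the 2 probes named Kcnd3 (orange, plus strand) and the 2 Flrt3 probes (green, minus strand) on rn4 chromosome 3, with the distance in bases from the first base of the first probe on the horizontal axis. The first Kcnd3-named probe ends at base 59 and the overlapping Flrt3 probe starts at base 34.

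Kcnip1 had a pair of probes by name, whose sequences align in part. The first lies at chr10:18562052-18562111 on the minus strand, and the other is unmapped on rn4 in the files. They overlap by 34 bases and differ at 7 of them, which are in capitals.
Kcnip1, mapped: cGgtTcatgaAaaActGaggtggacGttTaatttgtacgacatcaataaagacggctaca
Kcnip1, unmapped: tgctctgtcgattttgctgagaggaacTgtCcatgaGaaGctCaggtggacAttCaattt
Both were well above background in 18 of 18 channels of each strain. Kcnip genes resemble each other in sequence, and binding of these probes to other family members was not tested. With 7 differing bases, both probes cannot match the same stretch exactly, and whether each reads Kcnip1 was not tested. The files place the Kcnip2 probe at chr1:251011241-251011585, the Kcnip3 probe at chr3:114961933-114962584, the Dpp6 probe at chr4:2858442-2861962 and the Dpp10 probe at chr13:35543100-35543394, all on the minus strand. These spans of 345, 652, 3521 and 295 bases are wider than a probe, so each of these probes joins separate pieces of the genome. The Kcnip4 probe lies at chr14:67452493-67452552 on the plus strand. The Dpp10 probe is shown because it gave the largest difference between areas among the members.
Dpp10: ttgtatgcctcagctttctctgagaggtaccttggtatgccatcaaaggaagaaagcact
In all, 9 of the 11 probes were detected in every area, meaning well above background on at least 4 of the 6 arrays of an area in the channel of either strain. The Kchip2 probe of Kcnip2, also unmapped, was well above background on 6 of 6 hippocampal arrays in both strains, on 1 (WHP) and 2 (WLP) accumbens arrays, and on no prefrontal array.

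An array held 28670 to 38080 spots well above background in its green channel and 31207 to 38173 in its red one. Precision is limited by having 3 pool pairs per area. Nucleus accumbens and prefrontal pairs of the same number share a slide, and the hippocampal pairs lie on other slides scanned in a second session, so hippocampus and session cannot be told apart. Dye-swapped arrays of a pair should give the same strain ratio. Over the 28377 probes detected in all areas their ratios correlated between 0.31 and 0.71 in 7 pairs, but at 0.05 in accumbens pair 3 and -0.01 in hippocampal pair 2. The 9 member probes showed this too, with a median gap between the swapped arrays of 0.62 and 0.30 in those pairs and 0.03 to 0.24 in the other 7. Leaving out accumbens pair 3 turned the sign of the mean accumbens ratio of 1 of the 9 probes, Dpp10 (-0.04 to 0.04), and leaving out hippocampal pair 2 that of Kcnip2 in the hippocampus (0.10 to -0.02). No strain ratio of a partner passed without them. With both pairs left out of the level comparisons, an alternative chosen after seeing the data, the calls of the members were unchanged except that Kcnip2 was lost between accumbens and prefrontal cortex (-0.18, adjusted p = 0.14). Striatal markers (15 of 16 listed genes measured) had a mean log2 signal, relative to the median of each array, of 3.17 ± 0.29 in the accumbens (SD, n = 6 arrays), 2.98 ± 0.65 in the prefrontal cortex and 1.55 ± 0.18 in the hippocampus. Their range was 2.84 to 3.53 on accumbens arrays and 1.78 to 3.57 on prefrontal arrays, so the samples labelled prefrontal carried striatal marker signal at a similar level. Some local backgrounds were outlying, above 2 times the array median. With these replaced, an alternative chosen after seeing the data, striatal markers averaged 3.22 ± 0.28 on prefrontal arrays (2.91 to 3.57) and 3.17 ± 0.29 on accumbens arrays. Cortical markers then averaged 2.23 ± 0.14 on prefrontal arrays. Without replacement, cortical markers (10 of 11) averaged 0.54 ± 0.12 in the accumbens, 2.03 ± 0.52 in the prefrontal cortex and 2.24 ± 0.22 in the hippocampus. Hippocampal markers (11 of 11) were highest in the hippocampus at 1.06 ± 0.10.

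Kcnd2 signal was lower in WHP than in WLP in the nucleus accumbens. The log2 ratio of WHP over WLP was -0.43 in pool pair 1, -0.34 in pair 2 and -0.30 in pair 3, a mean of -0.36 ± 0.07 (SD, n = 3), or 1.28-fold lower. All 6 accumbens arrays gave a ratio below 0, from -0.46 to -0.13. As log2 levels, the WHP pools stood at 11.72, 11.49 and 11.64 and the WLP pools at 12.15, 11.83 and 11.94, so the highest WHP pool lay under the lowest WLP pool. The widest gap between swapped arrays was in pair 3, with -0.46 and -0.13. Without that pair the accumbens mean was -0.39.

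In the other areas the Kcnd2 ratio was closer to 0. In the prefrontal cortex it was -0.14, -0.0013 and -0.13 in pairs 1 to 3, with a mean of -0.09 ± 0.08 and 4 of 6 arrays below 0. In the hippocampus it was -0.13, 0.02 and -0.26, with a mean of -0.12 ± 0.14 and 5 of 6 arrays below 0. The pools of the strains overlapped in both areas. The hippocampal value above 0 came from pair 2, whose swapped arrays gave -0.18 and 0.22, and without that pair the hippocampal mean was -0.19. Over all 9 pairs the mean was -0.19 ± 0.15, with 8 pairs and 15 of 18 arrays below 0. These Kcnd2 ratios are part of why the genes were chosen, so they carry no test. In pooled tissue RNA, fewer cells of a type and less RNA per cell cannot be told apart. Beside the accumbens values, the median ratio of the 15 striatal markers was -0.23, -0.69 and -0.06 in pairs 1 to 3, and that of 7 interneuron markers was -0.16, -0.21 and -0.19. The median of 5 pan-neuron markers was below 0 in these pairs as well, at -0.09, -0.05 and -0.16. Single markers of these lists went both ways. Below 0 in pairs 1 to 3 were 11, 15 and 8 striatal markers and 5, 5 and 4 interneuron markers. Of the pan-neuron markers, 3 were below 0 in each pair. The interneuron median was also below 0 outside the accumbens. It was -0.26, -0.11 and -0.11 in the prefrontal cortex and -0.22, -0.22 and -0.32 in the hippocampus. The remaining lists went both ways in the accumbens. The widest were 8 markers of meninges and fibroblasts at 1.18, 2.50 and -0.97 and 6 of oligodendrocytes at -0.54, 0.27 and -0.71. The median of 6 microglia markers was -0.28, 0.0013 and -0.20, with 6, 3 and 6 of them below 0. The part of these cell types in the Kcnd2 ratio was not tested.

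**Figure D2:**
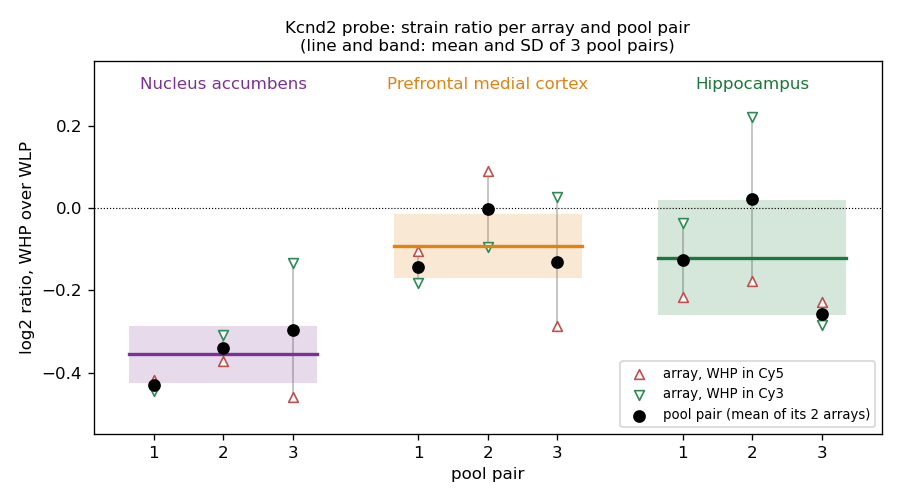
Log2 ratio of WHP over WLP for the Kcnd2 probe (vertical axis) by pool pair and area (horizontal axis). Triangles are single arrays, pointing up with WHP in Cy5 and down with WHP in Cy3, black points are pool pairs, and lines and bands are area means and SD (n = 3). All 6 accumbens arrays lie below 0, and the arrays of hippocampal pair 2 lie on opposite sides of 0.

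No partner passed the test for strain in any area. The test was limma's moderated test on the pool-pair ratios, adjusted by Benjamini-Hochberg over all detected probes. In the accumbens 0 of 8 partner probes passed where 0.252% of all tested probes did, in the prefrontal cortex 0 of 8 against 0.0905%, and in the hippocampus 0 of 9 against 0.25%. In the mean of the areas 0 of 8 passed against 2.85% of probes. At an unadjusted p under 0.05 there was 1 partner probe in the accumbens, that of Kcnip2, and 0 in the prefrontal cortex, the hippocampus and the mean. Of all probes 16.3%, 8.45%, 6.68% and 17.8% had such a p in these comparisons, so these counts are near the background too. With so few calls among all probes, counts of 0 lie at the background. The medians over the member probes tested, Kcnd2 included, were -0.04, -0.01 and 0.00 in the accumbens, the prefrontal cortex and the hippocampus, and those over all probes were 0.00 in each.

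The Kcnd3-named probe was below 0 in all 3 accumbens pairs, at -0.07, -0.16 and -0.35, and on 6 of 6 arrays. It did not pass (adjusted p = 0.32 by limma). Its pair 3 value joins arrays at -0.04 and -0.66, and without pair 3 the mean went from -0.19 to -0.11. In the hippocampus the ratios were 0.43, 0.07 and -0.01, with pair 1 made of arrays at 0.16 and 0.70. Neither Flrt3 probe passed in any area, with mean ratios of -0.09 and 0.03 in the accumbens.

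Among the calcium-binding subunits, the probes named Kcnip1 gave ratios mostly above 0 and moved together. The mapped probe read -0.02, 0.20 and 0.23 in the accumbens, -0.17, 0.30 and 0.10 in the prefrontal cortex and 0.29, -0.07 and 0.23 in the hippocampus. The unmapped probe read 0.05, 0.11 and 0.13, then -0.17, 0.36 and 0.10, then 0.19, -0.06 and 0.03. The sign was the same in 8 of 9 pairs, and the median gap between the probes was 0.07. Across the pairs the ratios correlated at 0.85 (Pearson, n = 9 pairs on shared arrays). Whether both probes read the same transcript was not tested. Over the 9 pairs the mapped probe averaged 0.12 ± 0.17, with adjusted p = 0.30 for the mean of the areas.

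Kcnip2 had the lowest single ratio of any member. In the accumbens its main probe read 0.13, -0.51 and -0.67, so the pairs disagreed in sign, with a mean of -0.35 ± 0.42 and adjusted p = 0.27. The swapped arrays of pair 1 gave -0.20 and 0.46. Leaving out pair 1 gave -0.59 with adjusted p = 0.033, past the threshold, and leaving out pair 3 gave -0.19, so size and call rest on which pairs enter. In the prefrontal cortex it read -0.15, -0.09 and -0.27, with 6 of 6 arrays below 0 and adjusted p = 0.82. In the hippocampus it read 0.02, 0.35 and -0.07, where the swapped arrays of pair 2 gave 0.91 and -0.21, and the mean fell from 0.10 to -0.02 without that pair. The dim Kchip2 probe shared the sign of the main probe in 7 of 9 pairs, with ratios from -0.12 to 0.07.

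Kcnip3, also known as DREAM or calsenilin and able to bind DNA as a repressor, changed sign between pairs in the accumbens and the prefrontal cortex. It read 0.36, -0.36 and 0.12 in the accumbens and 0.32, -0.33 and -0.12 in the prefrontal cortex. Swapped arrays of these 6 pairs had the same sign, with 0.44 and 0.29 in accumbens pair 1 and 0.23 and 0.40 in prefrontal pair 1. The median ratio of the 10 cortical markers in the same pairs was 0.31, -0.20 and 0.01 in the accumbens and 0.65, -0.55 and -0.04 in the prefrontal cortex, and its part in the Kcnip3 ratio was not tested. In the hippocampus Kcnip3 was below 0 in all pairs, at -0.31, -0.03 and -0.15, with adjusted p = 0.99. The cortical marker medians of those pairs were -0.03, 0.12 and -0.0015. Kcnip4, an isoform of which slows inactivation of the channel, read -0.09, 0.31 and -0.14 in the accumbens, 0.09, 0.01 and 0.03 in the prefrontal cortex and -0.05, -0.18 and -0.28 in the hippocampus.

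Of the membrane partners, Dpp6 was below 0 in 7 of 9 pairs and 14 of 18 arrays. It read -0.14, -0.06 and -0.25 in the accumbens, -0.23, 0.14 and -0.24 in the prefrontal cortex and -0.14, 0.06 and -0.04 in the hippocampus. Its mean over the pairs was -0.10 ± 0.14, with adjusted p = 0.29 for the mean of the areas. The -0.25 of accumbens pair 3 joins arrays at 0.40 and -0.91, the widest gap of any member, and without that pair the accumbens mean was -0.10. Dpp10 was below 0 in all hippocampal pairs, at -0.03, -0.40 and -0.37, a mean of -0.27 ± 0.20 with adjusted p = 0.77. In the accumbens it read 0.37, -0.30 and -0.19, and in the prefrontal cortex 0.04, -0.08 and 0.01.

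**Figure D3:**
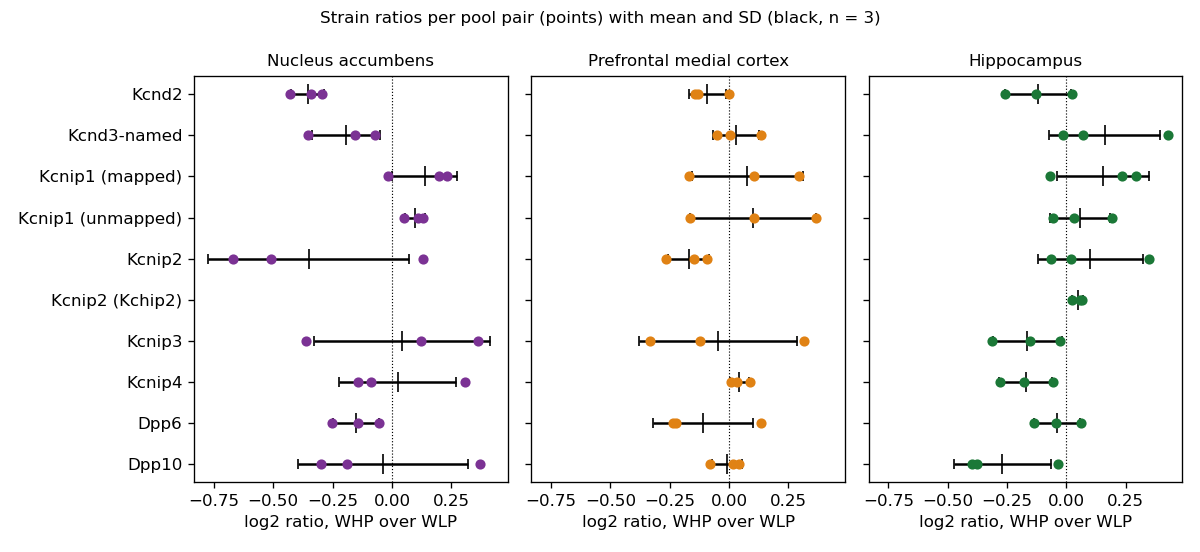
Log2 ratio of WHP over WLP (horizontal axis) for the member probes detected in each area (rows). Points are pool pairs, and black marks and bars are the mean and SD (n = 3). The Kcnd2 points of the accumbens lie together below 0, while those of Kcnip2, Kcnip3 and Dpp10 lie on both sides of 0.

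Levels differed between the areas for most members. They are log2 signals averaged over both strains and both dyes and quantile-normalized between arrays, so they do not depend on the strain ratio that chose the genes, and they can be compared between areas but not between probes. Kcnd2 was highest in the hippocampus, where its pools ranged from 11.97 to 12.28 with a median of 12.20. It ranged from 11.49 to 12.15 around 11.77 in the accumbens and from 11.24 to 11.57 around 11.40 in the prefrontal cortex. Prefrontal and hippocampal pools did not overlap, and accumbens pools overlapped with those of both other areas. How often pools of different areas overlap over all probes was not counted, here or below. By limma, Kcnd2 was 0.76 ± 0.08 log2 units lower in the prefrontal cortex than in the hippocampus (SE, 1.70-fold, adjusted p = 1.86e-05). It was 0.37 ± 0.08 lower in the accumbens than in the hippocampus (1.29-fold, adjusted p = 0.0021). The order hippocampus, accumbens, prefrontal cortex therefore held beyond the spread of the pool pairs at each step with this scaling. That spread does not cover the second scan session, which held all hippocampal arrays and no others. Before normalization the median green signal of an array was 155 to 209 in that session and 78 to 100 in the first. Area and session cannot be told apart in any comparison with the hippocampus, here or below.

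The step between accumbens and prefrontal cortex depended on the scaling. Quantile-normalized, Kcnd2 was 0.40 ± 0.08 higher in the accumbens (adjusted p = 0.0026), but with arrays only centred on their median it was 0.50 higher with adjusted p = 0.28. With outlying local backgrounds also replaced it was 0.19 higher with adjusted p = 0.070, an alternative chosen after seeing the data. The array of prefrontal pair 1 with WHP in Cy3 held 43 such backgrounds, the most of any array, and stood apart in level. Replacing them lowered the SD of the 6 astrocyte markers over prefrontal arrays from 0.79 to 0.051. The steps to the hippocampus passed under all 10 alternatives without a left-out pair, at -1.04 to -0.31 from the accumbens and -1.37 to -0.71 from the prefrontal cortex, the widest with median centring, where outlying backgrounds were also replaced for -1.04 and not for -1.37.

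**Figure D4:**
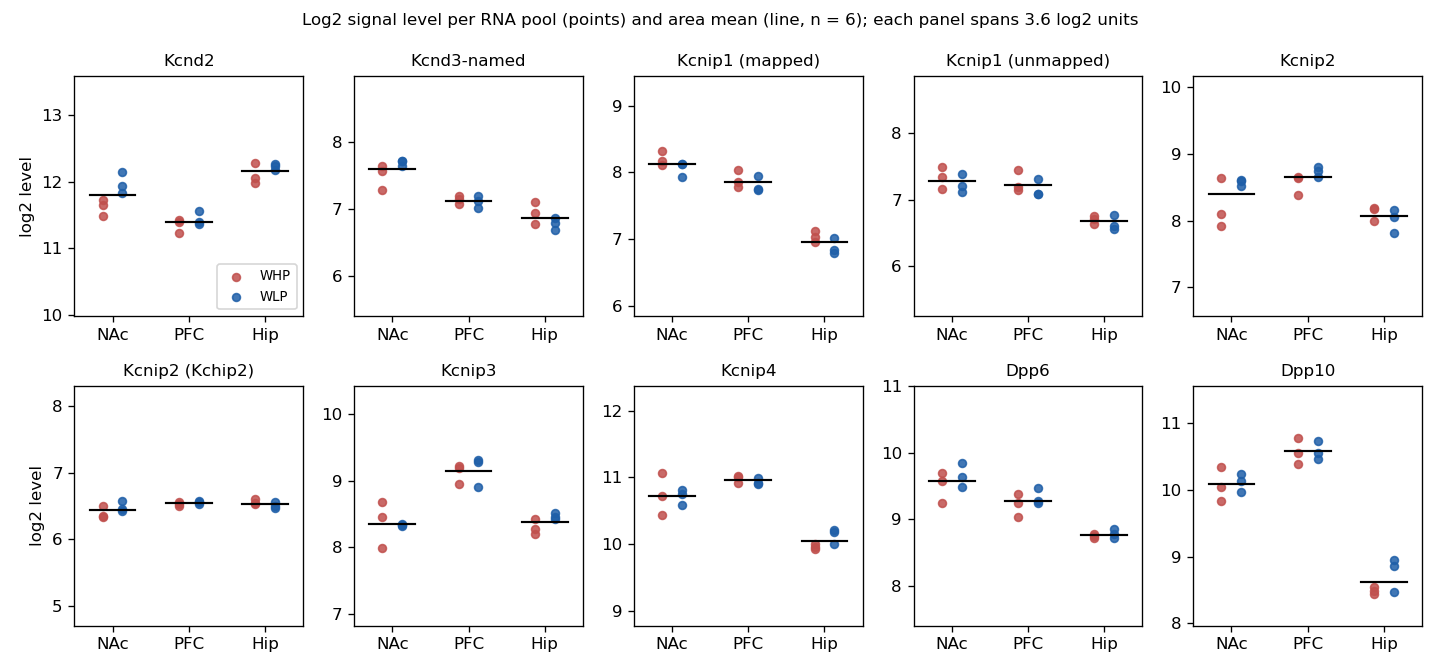
Log2 signal level of each RNA pool (points, WHP red and WLP blue) in the nucleus accumbens (NAc), prefrontal medial cortex (PFC) and hippocampus (Hip), with 1 panel per detected member probe, the area mean as a line (n = 6 pools) and the same span of log2 units in every panel. Kcnd2 has its highest mean in the hippocampus. Dpp10, Kcnip4, both Kcnip1 probes, Dpp6, the main Kcnip2 probe and the Kcnd3-named probe have their lowest mean there.

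Most partners ran the other way, with less signal in the hippocampus. Between prefrontal cortex and hippocampus 9 of 10 member probes passed, 8 higher and 1 lower in the prefrontal cortex, where 70.3% of all tested probes passed, 32.7% higher and 37.5% lower. Between accumbens and hippocampus 8 of 10 passed, 7 higher and 1 lower in the accumbens, against 73.4% of all, 35.3% higher and 38.2% lower. In both comparisons the 1 lower probe was that of Kcnd2. In either direction, shares of 90% and 80% lie near those backgrounds, so these totals are no result about the members. The split into higher and lower was further from its background and was not tested. The 10 probes include 2 each of Kcnip1 and Kcnip2, and the Kcnd3-named probe. The median difference over the members tested was 0.56 for prefrontal cortex minus hippocampus and 0.64 for accumbens minus hippocampus, while the medians over all probes were -0.03 and -0.02.

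Dpp10 differed most. Its pools ranged from 8.44 to 8.95 in the hippocampus, from 9.84 to 10.35 in the accumbens and from 10.39 to 10.78 in the prefrontal cortex, without overlap between any areas. It was 1.95 ± 0.10 higher in the prefrontal cortex than in the hippocampus (SE, 3.88-fold, adjusted p = 2.78e-07) and 1.47 ± 0.10 higher in the accumbens than in the hippocampus (2.77-fold, adjusted p = 7.32e-07). Dpp6 took another order, with 9.58 ± 0.21 in the accumbens, 9.27 ± 0.15 in the prefrontal cortex and 8.77 ± 0.05 in the hippocampus (SD, n = 6 pools). Dpp6 was 0.81 ± 0.09 higher in the accumbens than in the hippocampus (SE, adjusted p = 2.62e-05) and 0.51 ± 0.09 higher in the prefrontal cortex (adjusted p = 7.52e-04). The latter was 0.26 with median centring and no longer passed (adjusted p = 0.24).

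The Kcnip genes followed separate patterns. Both probes named Kcnip1 were lowest in the hippocampus, though by different sizes. The accumbens was 1.17 log2 units above the hippocampus by the mapped probe (95% confidence interval 1.05 to 1.29). By the unmapped probe it was 0.61 above (0.44 to 0.77). With the scanner's processed signals these differences were 2.19 and 1.73, outside these intervals, so the size depends on the processing. Between accumbens and prefrontal cortex the mapped probe was 0.28 ± 0.05 higher (SE, adjusted p = 0.0017), while the unmapped probe differed by 0.07 (interval -0.10 to 0.23, adjusted p = 0.47). Kcnip4 was 0.91 ± 0.09 higher in the prefrontal cortex than in the hippocampus and 0.68 ± 0.09 higher in the accumbens than in the hippocampus. Under median centring these fell to 0.43 (adjusted p = 0.16) and 0.31 (adjusted p = 0.33) and no longer passed. With outlying backgrounds also replaced the accumbens value was 0.18 (adjusted p = 0.082). Kcnip3 was highest in the prefrontal cortex, where pools of 8.91 to 9.31 did not overlap with 7.99 to 8.68 in the accumbens or 8.21 to 8.52 in the hippocampus. Kcnip3 was 0.78 ± 0.08 lower in the accumbens than in the prefrontal cortex (SE, 1.72-fold, adjusted p = 5.75e-05), and accumbens and hippocampus differed by -0.02 (interval -0.21 to 0.16, adjusted p = 0.80). With median centring and replaced backgrounds that difference was -0.19 and passed (adjusted p = 0.029). Kcnip2 was also highest in the prefrontal cortex, 0.59 ± 0.09 above the hippocampus (SE, adjusted p = 2.28e-04) and 0.25 ± 0.09 above the accumbens, the latter with adjusted p = 0.040. The Kchip2 probe of the same gene did not pass in either comparison with the hippocampus (adjusted p = 0.12 and 0.89).

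Between accumbens and prefrontal cortex 7 of 9 member probes passed, or 77.8%, where 49.8% of all tested probes did, 25.8% higher and 24% lower. No test of that share was run. Kcnd2, the Kcnd3-named probe, the mapped Kcnip1 probe and Dpp6 were higher in the accumbens, and Kcnip2, Kcnip3 and Dpp10 were lower there. Kcnip4, at -0.23 ± 0.09, did not pass (adjusted p = 0.056). The members did not shift together: their median difference was 0.07, and that of all probes was 0.01. With arrays centred on their median 0 of 9 passed. With outlying backgrounds also replaced 6 did. With Cy3 channels alone 4 did, as the mapped Kcnip1 probe, Kcnip2 and Dpp6 were lost. With the scanner's processed signals 7 did but not the same ones: Kcnip2 (adjusted p = 0.11) and Dpp6 (0.051) were lost, while Kcnip4 (-0.29, adjusted p = 0.031) and the unmapped Kcnip1 probe (0.51, adjusted p = 0.021) passed. The Kcnip2 call was lost without accumbens pair 2 or 3 or prefrontal pair 1 or 2 (highest adjusted p = 0.13). The Dpp6 call was lost without accumbens pair 1 or 2 or prefrontal pair 3 (highest adjusted p = 0.082). Striatal marker signal in these areas was similar, as given above, and its part in these differences was not tested.

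**Figure D5:**
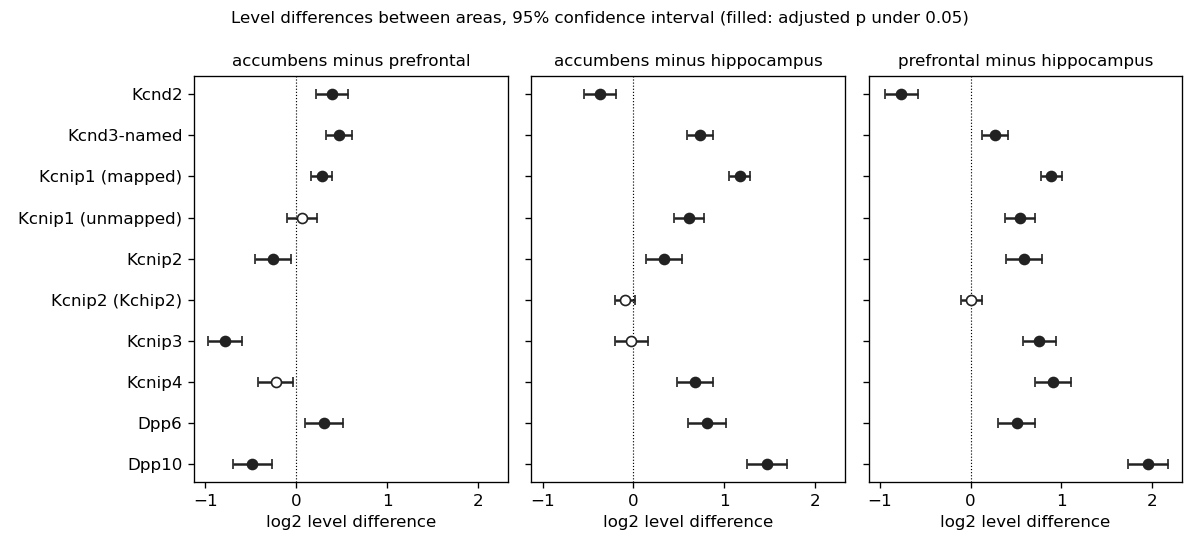
Log2 level difference between areas (horizontal axis) for each member probe tested (rows), with 95% confidence intervals over pool pairs. Filled points passed at an adjusted p under 0.05. Kcnd2 is the only probe with a filled point below 0 in both comparisons with the hippocampus, and Dpp10 has the largest difference from the hippocampus among them.

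The Kcnd3-named probe stood at 7.60 ± 0.16 in the accumbens, 7.13 ± 0.07 in the prefrontal cortex and 6.86 ± 0.15 in the hippocampus (SD, n = 6 pools). The overlapping Flrt3 probe on the other strand had its highest mean in the hippocampus, at 12.09 ± 0.11 against 11.50 ± 0.18 and 11.28 ± 0.19. The Kcnd3-named probe was 0.74 ± 0.06 higher in the accumbens than in the hippocampus (SE, adjusted p = 4.00e-06), and this Flrt3 probe was 0.59 ± 0.10 lower (adjusted p = 5.48e-04). The other Flrt3 probe was highest in the prefrontal cortex, at 7.90 ± 0.14 (SD). It stood at 7.73 ± 0.11 in the hippocampus and 7.49 ± 0.05 in the accumbens. Its accumbens minus hippocampus difference was -0.24 ± 0.06 (SE, adjusted p = 0.0034 by limma). The order of areas was thus opposite on the strands for that comparison. With the scanner's processed signals the Kcnd3-named difference was 1.57, and that between accumbens and prefrontal cortex went from 0.47 to 1.25.

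Among 12506 genes detected in all areas, the levels most like those of Kcnd2 over the 18 pools were those of Bspry (Pearson r = 0.954), Myo6 (0.950), Ceacam4 (0.936), Slc45a3 (0.930) and C11h21orf91 (0.928). Myo6 encodes a myosin motor that moves towards the minus end of actin filaments. The pools share areas and arrays, and with the area means removed the correlations with Kcnd2 were 0.73 for Bspry, 0.72 for Myo6 and 0.55 to 0.62 for the other 3. Bspry had the Kcnd2 order of areas, with mean levels of 11.56 in the hippocampus, 10.81 in the accumbens and 9.85 in the prefrontal cortex. The mean accumbens ratio of WHP over WLP was -0.41 for Bspry, -0.24 for Myo6, -0.26 for Ceacam4, -0.10 for Slc45a3 and -0.18 for C11h21orf91. These genes were picked for levels like Kcnd2 over pools of both strains and all areas, so a like order of areas and a like strain ratio are built into the choice.

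Other voltage-gated potassium channel genes were counted from a list of 32, of which 31 had a detected probe. For strain, 0 of the 31 tested passed in the accumbens and the prefrontal cortex, and 0 of 30 in the hippocampus and in the mean of the areas. Of all tested probes 0.252%, 0.0905%, 0.25% and 2.85% passed in that order, so counts of 0 lie at the background. Between accumbens and prefrontal cortex 4 were higher in the accumbens, Kcna6 (0.69 ± 0.05, SE), Kcna2 (0.66 ± 0.11), Kcnc1 (0.64 ± 0.07) and Kcna3 (0.14 ± 0.04), and 19 were lower. The lowest was Kcnv1, a silent subunit that forms channels only with other subunits, at -2.12 ± 0.23. Relative to the hippocampus 9 were higher and 18 lower in the accumbens, and 16 were higher and 8 lower in the prefrontal cortex. Of all tested probes 25.8% were called higher and 24% lower in the accumbens than in the prefrontal cortex. Against the hippocampus these shares were 35.3% and 38.2% for the accumbens, and 32.7% and 37.5% for the prefrontal cortex. The counts of channel genes were not tested against these shares. Kcna4, which encodes Kv1.4, another subunit of transient potassium currents, was lower than in the hippocampus in both areas, as Kcnd2 was, at -0.48 ± 0.08 in the accumbens (adjusted p = 4.39e-04) and -0.28 ± 0.08 in the prefrontal cortex (adjusted p = 0.013).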

How the data were processed

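The deposited scanner files (Agilent Feature Extraction 10.10.1.1, rn4, per the file headers) give mean and background intensities of the Cy3 and Cy5 channels, used here, and the scanner's processed signals, used as an alternative. The deposited value table holds log2 ratios, which correlated positively (0.55 to 0.98) with the scanner's ratio of WHP over WLP on each of the 18 arrays. Column medians of -0.011 to 0.022 show it centred near 0. How it was normalized is not given in the sources used here. The scanner's log10 ratios, deposited in the same files per the file headers, were not used.

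Here limma 3.58.1 (R 4.3.3) applied normexp background correction with an offset of 50, which pulls ratios of dim spots towards 0, and loess within arrays with control spots at weight 0. Non-uniform spots were left out. Spots of a probe, then the 2 dye-swapped arrays of a pair, were averaged. Strain ratios and levels (Aquantile between arrays) were fitted with lmFit and eBayes, 1 coefficient per area over 9 pairs, two-sided, with a threshold of 0.05 after Benjamini-Hochberg adjustment over detected probes. A p-value sets a mean ratio or level difference against the spread between pool pairs, which was pooled over the areas and moderated across probes. The fit was tested on simulated data.

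The members, lists and tests were chosen with earlier results of these data known. Named genes were the 8 members, the 5 genes with levels most like Kcnd2 (1 probe per gene, the brightest detected) and listed potassium channel genes that passed. Probes were named through the RefSeq table (GRCr8) by accession or symbol. Alternatives were other background corrections, scalings and filters, single dyes, the replicate number as a block, other variance models and left-out pairs.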

Additional observations from a re-analysis of the deposited data

Results flagged for a closer look

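Of 28 groups of 6 pools tested for a pool apart from the others, 1 was marked: the level of the Kcnd3-named probe in the accumbens, where the WHP pool of pair 3 stood at 7.29 and the other 5 pools between 7.57 and 7.72. Chance marks about 1 in 20 groups. Accumbens pair 3 is a pair whose dye-swapped arrays did not correlate, and they read -0.04 and -0.66 for this probe.

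The Kcnip4 strain ratio was above 0 in all 3 prefrontal pairs and below 0 in all 3 hippocampal pairs, a difference of 0.21 (SE 0.12). The test of the difference itself did not pass (adjusted p = 1.00 by limma). By limma 0 of 28588 probes passed it, and 1029 had an unadjusted p under 0.05.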

How the results depend on the processing

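Kcnd2 ratios kept their sign in each area under every alternative run, at -0.42 to -0.30 in the accumbens, -0.14 to -0.066 in the prefrontal cortex and -0.21 to -0.033 in the hippocampus. No level difference of a member that passed changed sign. Counts of probes called for strain were unstable against 76 in the accumbens, 26 in the prefrontal cortex, 87 in the hippocampus and 810 in the mean. The cause was not tested. WHP in Cy5 only gave 124, 70 and 1666 (accumbens, prefrontal cortex, mean), and WHP in Cy3 only 14, 2 and 1226. Processed signals gave 71, 21 and 469 (prefrontal cortex, hippocampus, mean), no subtraction 62 and replaced backgrounds 53 in the prefrontal cortex, and the deposited log2 values gave 26 in the hippocampus. Trend and robust variances in limma gave 0 in all 4, with 4384, 1689, 1948 and 4436 at an unadjusted p under 0.05. Areas fitted alone gave 0, 0 and 19, with 2469 and 2438 unadjusted in the first 2. Without the pairs of uncorrelated arrays the counts were 2, 8, 2 and 270, an alternative chosen after seeing the data, as was replacing backgrounds above 2 times the array median.

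Left-out pool pairs gave 23 to 725 in the accumbens (725 without accumbens pair 1), 1 to 36 in the prefrontal cortex, 9 to 103 in the hippocampus and 312 to 1555 in the mean. The replicate block gave 11, 3, 19 and 491. Deviations of same-numbered pairs of different areas from their area means correlated at -0.38 to 0.18. These correlations cannot tell whether a number stands for the same rats in each area, which the labels do not give. The replicate block changed no call of a member in levels.

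Level counts against 15165 (accumbens minus prefrontal), 25790 and 24533 (each minus hippocampus) moved by over 1.5 times with median centring, to 1880, 14404 and 14652. The split of higher and lower calls in accumbens minus prefrontal, 7859 and 7306, became 10907 and 5406 with processed signals, 1172 and 708 with centring, and 5113 and 9629 with centring and replaced backgrounds. In prefrontal minus hippocampus 11429 and 13104 became 8750 and 16997 with processed signals, which shifted the median of all probes by 0.13, -0.10 and -0.23 in the 3 comparisons.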
